A study of Populus davidiana with 6 samples.

Results

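Head-to-head neighbours are adjacent genes whose transcripts start back to back, the first on the minus strand and the second on the plus strand. The pairs described here were annotated loci next to each other on a chromosome or scaffold, with the start of the second minus the end of the first, called the gap, between 1 and 500 bp. A locus is all transcripts that the files place under 1 gene identifier, and an annotated locus holds at least 1 transcript marked as known. This rule found 260 pairs with 520 different loci, among 37403 adjacent pairs of annotated loci in all. The rule used positions and strands and no expression value. Some positions came from transcripts assembled from the reads, so the list is not fully independent of expression. Pairs were then described in depth where both genes reached 1 FPKM (a fragment count divided by transcript length and by the mapped fragments of the library) in at least 3 of the 6 libraries, which held for 133 pairs with 266 genes.

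In a head-to-head pair the promoters of both genes lie in the same short stretch of DNA. Such a stretch can work as a bidirectional promoter, in which open chromatin and bound factors serve both directions of transcription. In plants and animals some divergent neighbours are known to be expressed together, whereas others share the stretch and are expressed separately.

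The leaves came from Populus davidiana, an Asian aspen, cultivar Odae19, described in the labels as tolerant of drought. The air-dried group (3 libraries) came from seedlings propagated in vitro, about 6 weeks old, that were lifted out of the medium, rinsed in sterile water and then exposed to open air for some 10 min. The control group (3 libraries) came from the same cultivar, and the labels leave unsaid whether those plants were lifted and rinsed too, so lifting, rinsing and drying cannot be told apart. The labels speak of triplicate leaf samples and do not say that these were separate plants, so the p-values measure the spread between these libraries, which may be technical. The libraries were made from poly(A) RNA with a TruSeq RNA kit, which does not mark the strand, so strands come from the annotation or the assembly and not from the reads. The 2 loci of a pair do not overlap.

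In air-dried 1, 2 and 3 there were 22372, 22242 and 22404 loci at 1 FPKM or more, against 22093, 22225 and 22075 in controls 1, 2 and 3. FPKM holds no read counts, so the depth of the libraries is unknown. The summed FPKM of a library was uneven, at 1.84e+06, 4.18e+06 and 1.71e+06 in air-dried 1, 2 and 3. In controls 1, 2 and 3 it was 2.03e+06, 3.96e+06 and 3.26e+06. Deviations of the 266 genes from their group means, on the log2(FPKM + 1) scale, had a median size of 0.132, 0.107 and 0.0726 in air-dried 1, 2 and 3. In controls 1, 2 and 3 it was 0.106, 0.0619 and 0.114. Air-dried 1 and control 3 thus lay farthest from the rest of their groups, control 3 by little. The counts below are also given without this pair of libraries. Because these libraries were chosen by such deviations, the spread left within groups is smaller by selection. P-values without them may be too small. In bulk leaf RNA, fewer cells of a type and less RNA per cell cannot be told apart.

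Short gaps were much rarer between gene starts than between gene ends. Of 8550 head-to-head neighbours that did not overlap, 3.04% had a gap of up to 500 bp, against 16.9% of 8217 tail-to-tail and 3.78% of 18922 same-strand neighbours. The median gap over all distances was 6026.5 bp head to head, against 2223 bp tail to tail and 4305.5 bp on the same strand. Within the 260 pairs the gap ran from 3 to 500 bp with a median of 275.5 bp. There were 33 pairs at 1 to 100 bp, 50 at 101 to 200 bp, 55 at 201 to 300 bp, 55 at 301 to 400 bp and 67 at 401 to 500 bp. The pairs were spread over all 19 chromosomes, with 33 on chromosome 1 and 5 on chromosome 19, and 6 lay on 5 unplaced scaffolds. At the upper limit, 8 pairs had gaps in the last 10 bp inside it, and 6 further head-to-head neighbours had gaps in the first 10 bp beyond it. The pair with the widest gap inside the limit (500 bp) averaged 1.66 and 2.22 FPKM, and the nearest one outside (501 bp) averaged 0.412 and 0.358 FPKM.

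Transcripts assembled from the reads took part in setting the gaps. In 131 pairs the gap was the same when annotated transcripts alone were used, and in 128 the assembled transcripts narrowed it. In the remaining 1, the loci were no longer next to each other. With boundaries from annotated transcripts there were 247 pairs, of which 215 were among the 260. In 20 pairs another locus reached into the gap, and in 17 of these it spanned the whole gap. Such loci were annotated in 14 pairs and known from assembled reads alone in 6. Counting overlaps with the genes themselves, 50 of the 260 pairs were touched by another locus, whose reads cannot be told apart from theirs.

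Both genes were expressed in 51.2% of the 260 head-to-head pairs, 1 gene in 31.2% (81 pairs) and neither in 17.7% (46 pairs). Tail-to-tail neighbours with the same limits had both genes expressed in 46.0% of 1389 pairs, and same-strand neighbours in 30.4% of 716. By gap, the head-to-head share was 42.4% at 1 to 100 bp, 66.0% at 101 to 200 bp, 60.0% at 201 to 300 bp, 45.5% at 301 to 400 bp and 41.8% at 401 to 500 bp. The tail-to-tail share lay between 42.8% and 49.4% in the same 5 classes. Assembled transcripts took part in setting the gaps, so a pair's place on the list and its gap class depend in part on expression. With boundaries from annotated transcripts, both genes were expressed in 118 of 247 head-to-head pairs. These shares are descriptions of the annotation and these libraries, and no test of the orientations was made.

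**Figure D1:**
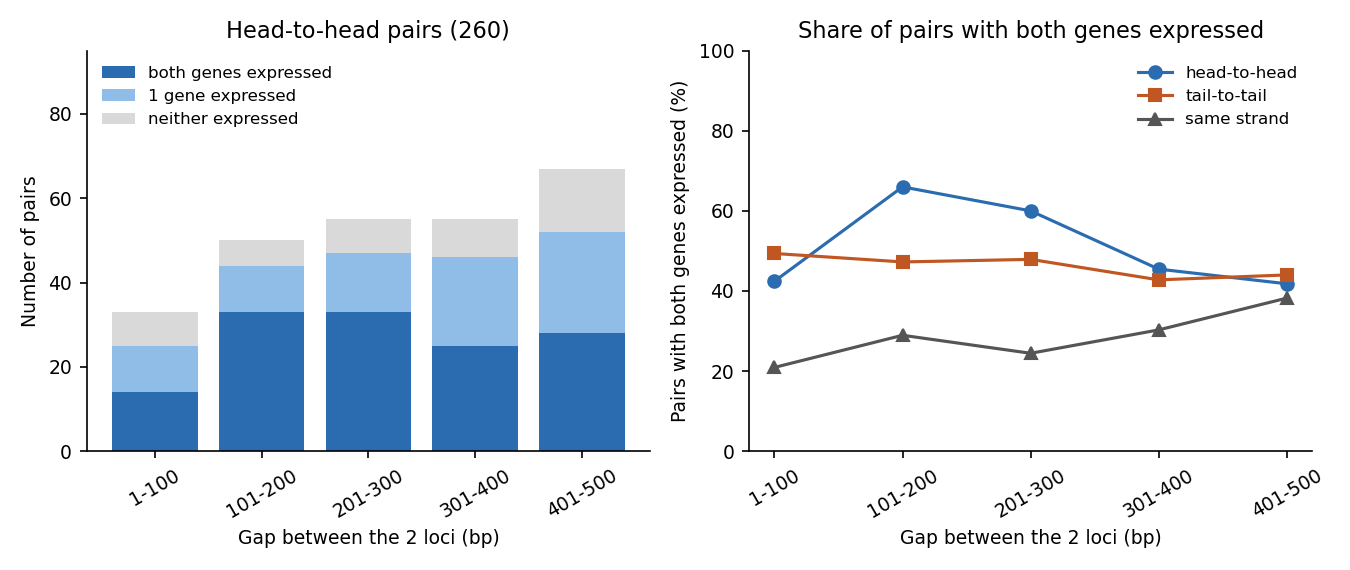
Left, number of head-to-head pairs by gap in bp (bars of 100 bp), split into pairs with both, 1 or neither gene at 1 FPKM or more in at least 3 of 6 libraries. Right, percent of pairs with both genes expressed, by gap, for head-to-head, tail-to-tail and same-strand neighbours; the head-to-head share peaked at 66.0% for gaps of 101 to 200 bp.

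Where 1 gene of a pair was expressed, its neighbour was low by selection, having failed the expression limit, and most neighbours lay far below that limit. The 81 expressed genes had a median of 9.96 FPKM and the 81 neighbours a median of 0.00595 FPKM, with a highest mean of 1.68 FPKM. Of these neighbours, 40 were listed at 0 in all 6 libraries and 13 reached 1 FPKM in any library. A value listed as 0 may also stand for a level that Cufflinks could not estimate. The loci that failed the limit were also shorter, with a median genomic span of 1090 bp against 3861 bp for their expressed neighbours. The gene that failed the limit was on the minus strand in 45 pairs and on the plus strand in 36. None of the 81 expressed genes was called changed after air-drying (0 of 81, limma with Benjamini-Hochberg adjustment), where 4.30% of all genes tested were called. An unadjusted p under 0.05 was found for 7 of them (8.64%), against 16.5% of all genes tested. At the expression limit, the lowest deciding value (the third highest of the 6 libraries) among genes that passed was 1.03 FPKM, and the highest among those that failed was 0.961 FPKM.

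In the 133 pairs with both genes expressed, levels were moderate. The 266 genes had a median of 14.2 FPKM over the 6 libraries, with quartiles of 7.35 and 26.1 FPKM and a range of 1.07 to 2340 FPKM. All 22559 genes tested had a median of 11.8 FPKM, with quartiles of 4.84 and 27.6 FPKM. By library, the median of the 266 genes was 14.4, 13.1 and 13.9 FPKM in air-dried 1, 2 and 3, against 14.5, 14.1 and 13.2 FPKM in controls 1, 2 and 3. The groups overlapped in this median. At least 1 FPKM was reached in all 6 libraries by 256 of the 266 genes, and none was under 1 FPKM in all 3 libraries of a group (0 of 266). The expression limit thus fixed no direction of change among them. Their median span was 3284.5 bp and 17.3% had a single transcript, against 3521 bp and 26.1% for all genes tested.

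The genes of a pair mostly differed in level, and usually in a fixed order. FPKM is scaled by transcript length, so levels can be set side by side between genes. The median difference between the neighbours was 2.61-fold (1.39 on the log2 scale, quartiles 0.70 and 2.29). In 46 pairs (34.6%) the 2 levels lay within 2-fold of each other, and in 18 pairs (13.5%) they were at least 8-fold apart. Over all 12459 expressed adjacent pairs that did not overlap, whatever their gap, 31.2% were within 2-fold and 25.1% at least 8-fold apart. The minus-strand gene was the higher one in 69 pairs and the plus-strand gene in 64. The same gene was higher in all 6 libraries in 114 of the 133 pairs (85.7%, against 85.7% of all expressed adjacent pairs). Across the 133 pairs the log2 levels of both genes correlated at Pearson r = 0.24 and Spearman rho = 0.18. For tail-to-tail pairs rho was −0.01 (639 pairs), for same-strand pairs −0.09 (218 pairs) and for all expressed adjacent pairs 0.01. The points share the same 6 libraries and are a description without a test.

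**Figure D2:**
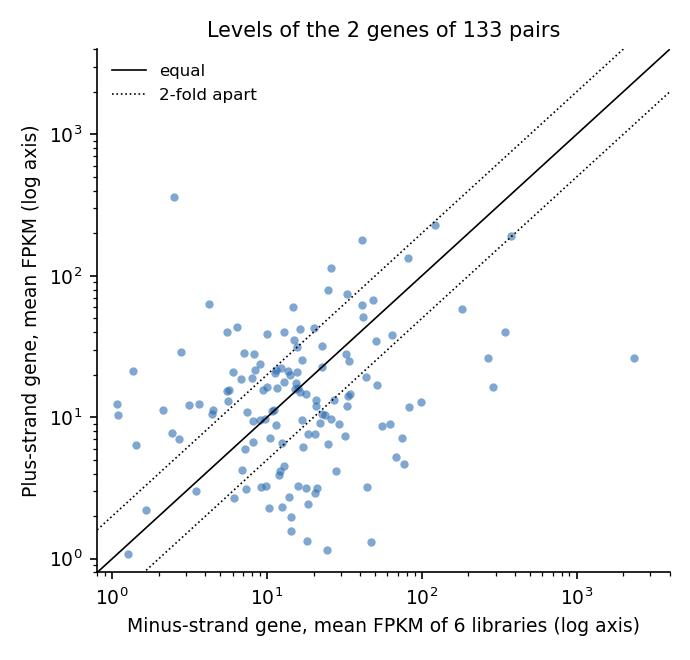
Mean FPKM over 6 libraries of the plus-strand gene (vertical, log axis) against the minus-strand gene (horizontal, log axis) in 133 head-to-head pairs, 1 point per pair. The solid line marks equal levels and the dotted lines a 2-fold difference, within which 46 pairs lie.

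The highest pair by the geometric mean of both levels lay on chromosome 13, with a gap of 308 bp between positions 1650170 and 1650478 (the genome build of the coordinates is not given in the sources used here). Its minus-strand gene measured 379, 364 and 409 FPKM in air-dried 1, 2 and 3, against 421, 367 and 326 FPKM in controls 1, 2 and 3. Its plus-strand gene measured 178, 198 and 214 FPKM in the air-dried libraries, against 181, 197 and 178 FPKM in the controls. In both genes the groups overlapped, and the log2 fold changes were 0.05 (SE 0.12) and 0.08 (SE 0.10).

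The next pair by level, on chromosome 5 (gap of 329 bp, 23694345 to 23694674), was also among the most unequal. Its minus-strand gene averaged 2136 ± 890 FPKM in the air-dried libraries and 2543 ± 1474 FPKM in the controls (SD, n = 3 each). Its plus-strand gene averaged 22.5 ± 2.00 FPKM and 29.8 ± 4.22 FPKM in these groups, a difference in level between the neighbours of 89.5-fold. The minus-strand gene measured 3155, 1512 and 1741 FPKM in air-dried 1, 2 and 3, against 4196, 2068 and 1366 FPKM in controls 1, 2 and 3, so its spread within each group exceeded the difference between groups. The third pair by level, also on chromosome 5 (gap of 444 bp, 3408129 to 3408573), had 2 other loci reaching into its gap. It averaged 116 ± 20.1 and 228 ± 10.9 FPKM for the minus- and the plus-strand gene in the air-dried libraries, against 126 ± 12.6 and 226 ± 16.0 FPKM in the controls. The most unequal of all 133 pairs, on chromosome 1 (gap of 49 bp, 47489640 to 47489689), differed 143-fold. Its minus-strand locus spans only 379 bp and measured 1.30 to 3.77 FPKM, near the expression limit, so this ratio is loosely determined. There the minus-strand gene averaged 2.75 ± 0.932 FPKM in the air-dried libraries and 2.26 ± 1.19 FPKM in the controls, while the plus-strand gene measured 341, 316 and 312 FPKM in air-dried 1, 2 and 3, against 387, 414 and 381 FPKM in controls 1, 2 and 3. The 3 air-dried values of this plus-strand gene lay below the 3 controls, but the log2 fold change of −0.29 (SE 0.089) did not pass the test (limma adjusted p = 0.18).

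At the other end, the closest match in level was a pair on chromosome 8 with a gap of 142 bp (2459011 to 2459153). Its genes averaged 9.97 ± 1.77 and 9.56 ± 4.03 FPKM in the air-dried libraries, against 9.53 ± 0.953 and 9.79 ± 3.74 FPKM in the controls. The second closest match lay on chromosome 1 with a gap of 198 bp (46820954 to 46821152), at 23.4 ± 0.567 and 21.8 ± 5.06 FPKM in the air-dried libraries, against 21.7 ± 1.13 and 23.7 ± 3.07 FPKM in the controls. In both pairs the minus-strand value is given first, and no gene passed the test.

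The pairs with the shortest gaps were not always close in level, and no test of gap against level was made. The smallest gap among the 133 pairs was 23 bp, on chromosome 1 (26510783 to 26510806). Its minus-strand gene averaged 27.0 ± 4.40 FPKM in the air-dried libraries and 24.9 ± 2.02 FPKM in the controls, and its plus-strand gene 109 ± 11.0 and 120 ± 24.2 FPKM. With a gap of 25 bp on chromosome 6 (22031815 to 22031840), the averages were 5.88 ± 0.875 and 2.91 ± 0.200 FPKM in the air-dried libraries, against 6.35 ± 0.686 and 2.47 ± 0.407 FPKM in the controls. With a gap of 26 bp on chromosome 2 (6081976 to 6082002), they were 18.2 ± 5.19 and 15.0 ± 5.20 FPKM, against 17.4 ± 2.80 and 14.1 ± 4.62 FPKM. The levels of these 3 pairs thus differed 4.41-fold, 2.27-fold and 1.22-fold. By gap class the median difference in log2 level was 1.74 at 1 to 100 bp (14 pairs), 1.24 at 101 to 200 bp (33 pairs), 1.42 at 201 to 300 bp (33 pairs), 1.38 at 301 to 400 bp (25 pairs) and 1.47 at 401 to 500 bp (28 pairs).

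Head-to-head genes changed little after air-drying. Of the 266 genes, 1 was called higher and 0 lower (limma on log2(FPKM + 1) with Benjamini-Hochberg adjustment over all 22559 genes, adjusted p under 0.05, n = 3 libraries per group). That is 0.376% of the 266, where 4.30% of all genes tested were called, 3.61% higher and 0.696% lower. Genes of expressed tail-to-tail and same-strand pairs with gaps up to 500 bp also lay under that share, with 2.66% and 3.21% called. At an unadjusted p under 0.05 there were 9 higher and 13 lower genes (8.27%). This share was 16.5% of all genes tested, 13.1% of tail-to-tail and 11.5% of same-strand genes. In 14 genes all 3 air-dried libraries lay above all 3 controls and in 19 all lay below, 12.4% in sum. Such separation was found in 22.6% of all genes tested, 19.6% of tail-to-tail and 18.6% of same-strand genes. Without air-dried 1 and control 3, 0 genes were called higher and 2 lower, where 5.88% of all genes were called, 3.48% higher and 2.41% lower. No test of the list itself was made.

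The 2 genes called lower in those 4 libraries were not called with all 6, and are given here after their values were seen. On chromosome 15 (gap of 420 bp, 7968010 to 7968430) the plus-strand gene measured 209, 102 and 139 FPKM in air-dried 1, 2 and 3, against 246, 239 and 139 FPKM in controls 1, 2 and 3. The groups overlapped, and the log2 fold change was −1.02 in 4 libraries (SE 0.17, limma adjusted p = 0.046, against 0.57 with all 6). On unplaced scaffold_30 (gap of 67 bp) the plus-strand gene measured 186, 54.7 and 78.0 FPKM in air-dried 1, 2 and 3, against 235, 172 and 72.5 FPKM in controls 1, 2 and 3. There too the groups overlapped (log2 fold change −1.61 in 4 libraries, SE 0.24, limma adjusted p = 0.038, against 0.70 with all 6).

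The sizes of the changes were small as well. The median absolute log2 fold change was 0.10 for the 266 genes, 0.10 for tail-to-tail genes, 0.11 for same-strand genes and 0.13 for all genes tested. The median spread within groups, as an SD of log2 values, was 0.157 for the 266 genes and 0.147 for all genes tested. The log2 fold changes of the 266 genes ran from −0.73 to 1.47 with a median of −0.01. On the log2(FPKM + 1) scale, a 2-fold change was reached by 1 of them (0.376%). This share was 3.77% of all genes tested, 1.80% of tail-to-tail and 1.83% of same-strand genes. Calls were few in every class of span and level where the members lay. Among genes spanning 2000 to 4000 bp, 0 of 121 members were called, against 4.06% of all genes tested. Among genes of 5 to 20 FPKM, 0 of 127 were called, against 3.85%.

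**Figure D3:**
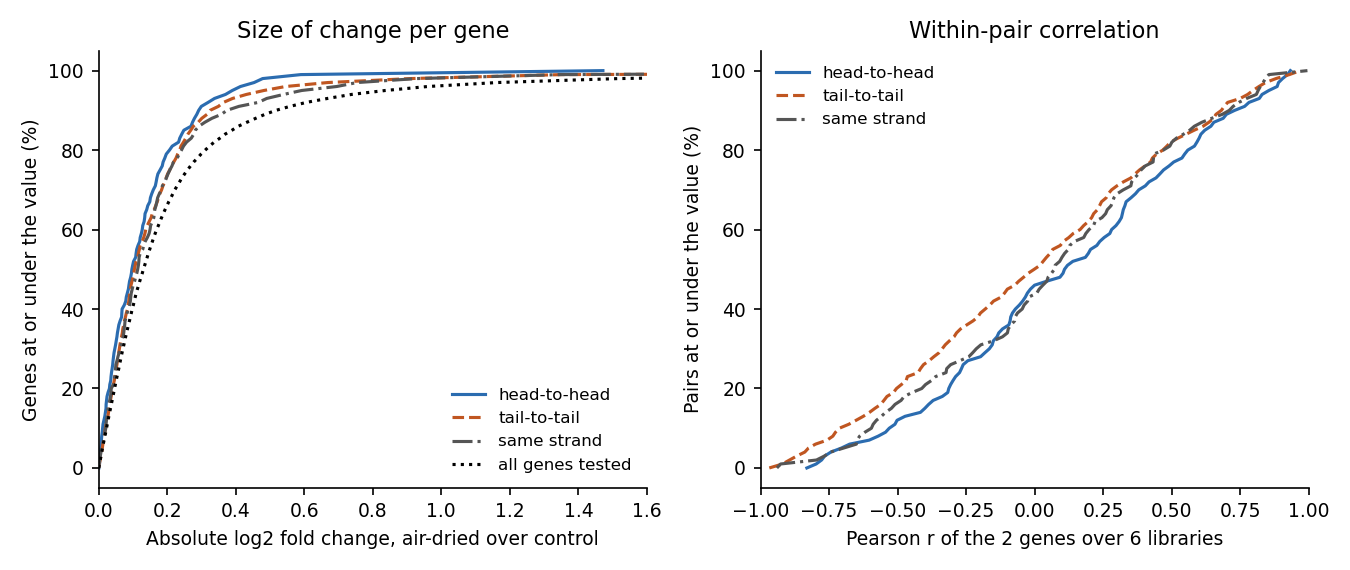
Left, percent of genes at or under each absolute log2 fold change (air-dried over control) for head-to-head, tail-to-tail and same-strand genes with gaps up to 500 bp and for all genes tested, whose curve lies farthest right. Right, percent of pairs at or under each within-pair Pearson correlation over the 6 libraries, with medians of 0.11 head to head, −0.0016 tail to tail and 0.07 on the same strand.

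The gene called higher was POPTR_0008s08690, the plus-strand member of a pair on chromosome 8 with a gap of 271 bp (5369705 to 5369976). The files do not pair identifiers with gene names, so its product is not given. It is a single-transcript locus ending at 5371011. It measured 96.8, 85.4 and 103 FPKM in air-dried 1, 2 and 3, against 67.6, 60.9 and 61.9 FPKM in controls 1, 2 and 3. All air-dried values lay above all controls, and the log2 fold change was 0.57 (SE 0.096, limma adjusted p = 0.029). Its minus-strand neighbour XLOC_035613 measured 27.8, 23.5 and 25.1 FPKM in air-dried 1, 2 and 3, against 28.7, 23.2 and 19.4 FPKM in controls 1, 2 and 3. This neighbour is a locus in which transcripts of several annotated genes were joined, and its value is their sum. There the groups overlapped and the log2 fold change was 0.11 (SE 0.15, limma adjusted p = 0.80). The log2 ratio of FPKM + 1 between both genes changed by 0.46 (SE 0.15). This did not pass the test of the difference (limma adjusted p = 0.16), so unequal change was not shown. The call of POPTR_0008s08690 was lost when air-dried 1, air-dried 3, control 1, control 2 or control 3 was left out (log2 fold change 0.51 to 0.62, limma adjusted p = 0.070 to 0.14) and held without air-dried 2 (limma adjusted p = 0.040). Without both air-dried 1 and control 3 the limma adjusted p was 0.089.

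Whether the genes of a pair changed by different amounts was tested on the log2 ratio of the plus-strand to the minus-strand gene. This ratio was taken on FPKM + 1, in 1 fit over 12459 adjacent pairs. Of the 133 head-to-head pairs, 1 was called (0.752%), against 6.17% of all pairs tested. With gaps up to 500 bp, 4.07% of tail-to-tail and 3.67% of same-strand pairs were called. An unadjusted p under 0.05 was found for 10 head-to-head pairs (7.52%), against 18.0% of all pairs. It was found for 14.1% of tail-to-tail and 13.8% of same-strand pairs. Over the 133 head-to-head pairs the change of the ratio ran from −1.08 to 0.73 on the log2 scale, with a median size of 0.16 and a median SE of 0.18. Changes of the ratio of that size could thus not be told from 0 in a typical pair. Without air-dried 1 and control 3 there were 7 called pairs, where 11.7% of all pairs were called, and the pair called in 6 libraries was not among them.

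The called pair lay on chromosome 2, with a gap of 226 bp between 8833550 and 8833776, and 1 other locus overlapped it outside the gap. Its plus-strand gene POPTR_0002s11920.r1 measured 2.27, 1.82 and 2.26 FPKM in air-dried 1, 2 and 3, against 5.47, 3.52 and 3.73 FPKM in controls 1, 2 and 3. All air-dried values lay below all controls, but as a single gene it did not pass the test (log2 fold change −0.73, SE 0.16, limma adjusted p = 0.073). Its minus-strand neighbour POPTR_0002s11910.r1 measured 23.5, 18.8 and 19.5 FPKM in air-dried 1, 2 and 3, against 25.1, 20.3 and 19.5 FPKM in controls 1, 2 and 3, and the groups overlapped (log2 fold change −0.07, SE 0.13). The log2 ratio of the neighbours changed by −0.67 (SE 0.14, limma adjusted p = 0.032). Taken on FPKM + 1, this ratio stood at −2.91, −2.81 and −2.65 in air-dried 1, 2 and 3, against −2.01, −2.24 and −2.12 in controls 1, 2 and 3. The added 1 FPKM makes the ratio and its change smaller than on plain FPKM. This call was lost whichever of the 6 libraries was left out (change of −0.74 to −0.61, limma adjusted p = 0.074 to 0.11). With a pseudocount of 5 FPKM the change was −0.31 (limma adjusted p = 0.14), and with 0.1 FPKM it was −0.88 (limma adjusted p = 0.022).

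No pair had both genes called, in the same or in opposite directions (0 of 133, against 29 of the 12459 expressed adjacent pairs, 23 of them in the same direction). Across the 133 pairs, both log2 fold changes had the same sign in 69 (51.9%), 26 with both above 0 and 43 with both below. For tail-to-tail pairs the share was 49.0% of 639, for same-strand pairs 51.8% of 218 and for all expressed adjacent pairs 51.0%. The log2 fold changes of the neighbours correlated at Pearson r = 0.16 and Spearman rho = 0.05 over the 133 head-to-head pairs. Without the pair holding the largest single fold change, r was 0.06 and rho 0.03. With no pair left out, r was −0.004 for tail-to-tail, 0.31 for same-strand and 0.05 for all expressed adjacent pairs. Their rho was −0.001, 0.04 and 0.04 in the same order. The pairs share all 6 libraries, so these values carry no test.

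**Figure D4:**
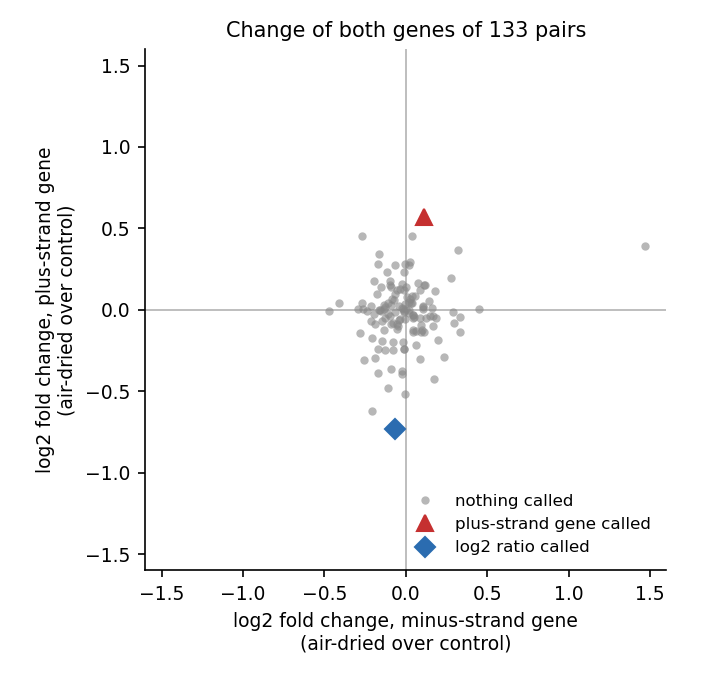
Log2 fold change (air-dried over control) of the plus-strand gene against that of the minus-strand gene in 133 head-to-head pairs, 1 point per pair. The triangle is the pair of POPTR_0008s08690, the diamond the pair on chromosome 2 whose log2 ratio was called, and most other points lie near 0 on both axes.

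The largest fold change among the 266 genes belonged to a short locus on unplaced scaffold_290 and did not pass the test. This minus-strand locus spans 222 bp. It measured 58.5, 12.7 and 18.9 FPKM in air-dried 1, 2 and 3, against 5.99, 21.8 and 3.76 FPKM in controls 1, 2 and 3, and the groups overlapped (log2 fold change 1.47, SE 0.76, limma adjusted p = 0.42). Its plus-strand neighbour, 155 bp away, measured 3.65, 3.59 and 3.10 FPKM in the air-dried libraries, against 1.92, 2.49 and 2.81 FPKM in the controls, where the groups did not overlap (log2 fold change 0.39, SE 0.13, limma adjusted p = 0.20).

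After the values were seen, a pair of longer loci in which both genes were higher in the air-dried libraries, and a pair in which they went opposite ways, were singled out. On chromosome 12, with a gap of 55 bp (13789742 to 13789797), the minus-strand gene measured 36.2, 34.7 and 38.5 FPKM in air-dried 1, 2 and 3, against 33.0, 28.3 and 25.9 FPKM in controls 1, 2 and 3. The plus-strand gene measured 87.0, 81.3 and 85.3 FPKM in the air-dried libraries, against 66.7, 68.0 and 61.0 FPKM in the controls. In both genes every air-dried value lay above every control, with log2 fold changes of 0.32 (SE 0.11) and 0.37 (SE 0.076), and neither passed the test (limma adjusted p = 0.20 and 0.057). Their log2 ratio differed between the groups by 0.05 (SE 0.12).

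On chromosome 13, with a gap of 340 bp (5491864 to 5492204), the neighbours went opposite ways. The minus-strand gene measured 17.8, 18.0 and 20.1 FPKM in air-dried 1, 2 and 3, against 23.0, 22.7 and 22.3 FPKM in controls 1, 2 and 3. The plus-strand gene measured 11.7, 15.9 and 14.8 FPKM in the air-dried libraries, against 7.90, 11.0 and 11.3 FPKM in the controls. The groups did not overlap in either gene, though neither passed the test (log2 fold changes −0.27 and 0.46, limma adjusted p = 0.13 and 0.25). The log2 ratio differed by 0.73 (SE 0.18, limma adjusted p = 0.076). Without air-dried 1 and control 3 it was called (0.91, SE 0.21, limma adjusted p = 0.042), where 11.7% of all pairs were called. Another locus overlapped this pair outside the gap, and its plus-strand locus also joins transcripts of several annotated genes.

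**Figure D5:**
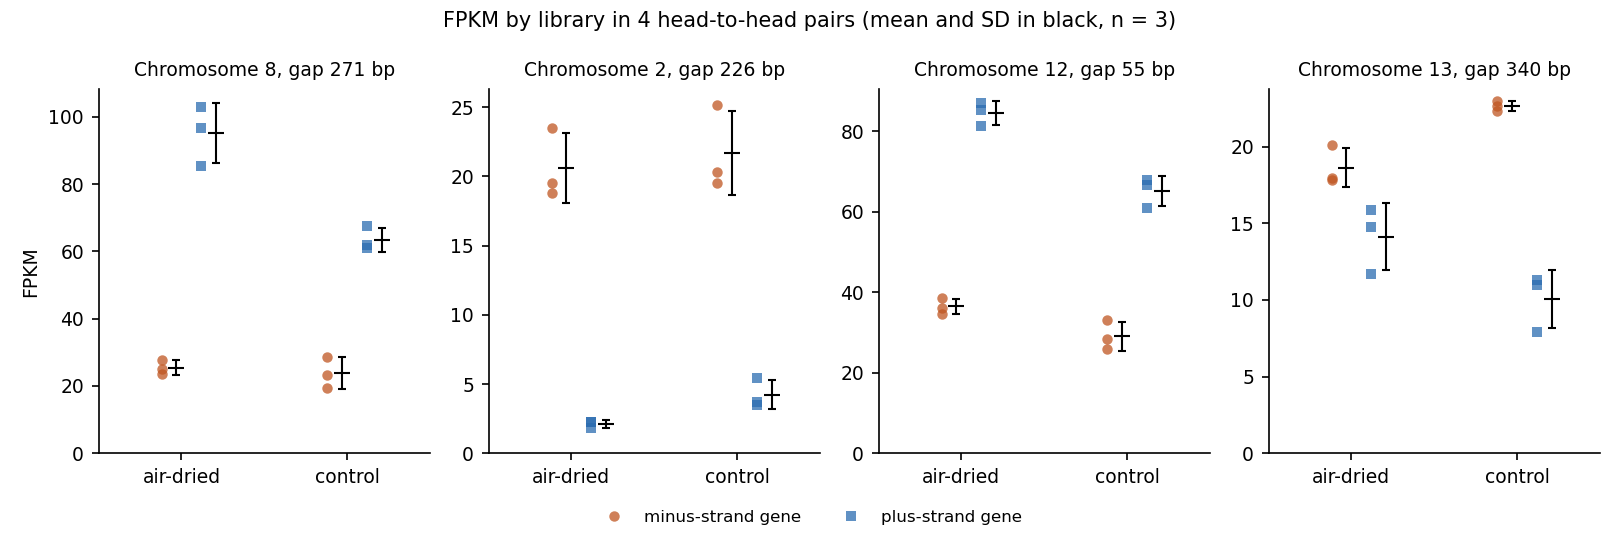
FPKM in each library of both genes of 4 head-to-head pairs, air-dried left and control right, with circles for the minus-strand gene, squares for the plus-strand gene and black bars for mean and SD (n = 3). In the pairs on chromosomes 8 and 2 the groups separate in the plus-strand gene alone, and in the pairs on chromosomes 12 and 13 they separate in both genes.

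Across the 6 libraries the neighbours varied together only weakly. The median within-pair Pearson correlation of log2(FPKM + 1) was 0.11, with quartiles of −0.27 and 0.47. Medians were −0.0016 for tail-to-tail, 0.07 for same-strand and 0.02 for all expressed adjacent pairs. With quantile normalization the head-to-head median was −0.03, so its sign depended on the scaling. After removal of the group means the median was 0.09. In 72 of the 133 pairs the correlation was above 0, in 10 it was above 0.8 (7.52%) and in 1 below −0.8. Of the 12459 expressed adjacent pairs, 6404 were above 0, 727 above 0.8 (5.84%) and 543 below −0.8, so the share above 0.8 was close to that of all pairs. The gaps of these 10 pairs ran from 51 to 420 bp with a median of 183 bp, 5 had levels within 2-fold, and 7 had fold changes of the same sign. The largest absolute log2 fold change among them was 0.48. A correlation over 6 libraries is loosely determined for a single pair, and these values are a description. By gap class the medians were 0.14, −0.05, 0.13, −0.07 and 0.25 for the 5 classes of 100 bp in rising order, with no steady trend.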

How the data were processed

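The deposited values are FPKM per transcript and library, per the file headers, and no step that scales the libraries to each other is recorded. FastQC, TopHat and Cufflinks were used, per the submitters' processing notes, which list no version for these tools. The genome build is not given in the sources used here. FPKM was summed over all transcripts of a locus, so assembled transcripts add to a gene's level. Of 112919 transcripts in 40537 loci, 38379 loci had an annotated transcript and a strand. In 2348 loci several annotated genes were joined, among them 20 of the 520 head-to-head loci.

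Loci at 1 FPKM or more in at least 3 libraries (22559) were tested with limma 3.58.1 in R 4.3.3 (lmFit, eBayes with trend, 2-sided) on log2(FPKM + 1), which understates changes of low genes, with the group as sole term. The same fit was made on the log2 ratio of FPKM + 1 of the neighbours in 12459 adjacent pairs that did not overlap. P-values were adjusted over all features by the Benjamini-Hochberg method, with a threshold of 0.05. A reported SD is over 3 libraries.

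The pairs shown are those with called ratios, the 3 highest by geometric mean, the 3 with the smallest gap and the 2 most and 2 least equal in level. Pairs with both genes called were also to be shown, and there were 0. The gene called, the largest fold change and the pairs moving together or apart were singled out after their values were seen. Identifiers are printed for 2 pairs and positions for the others. The members, lists and tests were chosen with earlier results of these data known. Groups by product name and promoter motifs were planned and not analysed here. Python 3.11.15 was used for positions and summaries.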

Additional observations from a re-analysis of the deposited data

How the results depend on the processing

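Over 20 alternatives, 1 of them chosen after the data were seen, both genes of a pair were never called together (0 pairs in each) and the share of pairs with fold changes of the same sign stayed between 46.7% and 59.4%. The count of 1 gene called higher was 0 without air-dried 1 and control 3 (2 lower), where 5.88% of all genes were called. It was 0 with a gap of at most 250 bp and 0 with loci of at least 300 bp holding 1 annotated gene each. Both settings left the pair of POPTR_0008s08690 off the list, and its call was unchanged (limma adjusted p = 0.029). The count was 2 with boundaries from annotated transcripts and 4 with gaps up to 1000 bp, where 259 pairs were expressed. In these settings of gap, locus and boundary 4.30% of all genes tested were called. Leaving out 1 library gave 0 to 1 higher and 0 lower genes, where 2.11% to 3.07% of all genes tested were called. The count of 1 pair with a called ratio was 7 without air-dried 1 and control 3, where 11.7% of all pairs tested were called. It was 2 with a pseudocount of 0.1 FPKM (6.16% of all pairs), 2 with quantile normalization (6.10%) and 2 with gaps up to 1000 bp (6.17%). It was 0 with a pseudocount of 5 FPKM (5.26% of all pairs) and with a mean of at least 5 FPKM (4.90%). It was also 0 with annotated transcripts alone (2.67%) and with no other locus touching the pair (6.17%). The count was 0 in every fit with 1 library left out, where 3.58% to 5.34% of all pairs were called.

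A fit with a block for the replicate number called 0 genes higher, where 2.47% of all genes tested were called. In it 1 pair had a called ratio, the pair on chromosome 13 with a gap of 340 bp, where 5.62% of all pairs were called. POPTR_0008s08690 and the pair on chromosome 2 each had a limma adjusted p of 0.07 in this fit. Between same-numbered libraries the deviations from the group means correlated at 0.24, −0.15 and 0.12, so the numbers were not taken to pair the samples. Air-dried 1 and air-dried 3 correlated best with the control of the same number, while air-dried 2 correlated best with control 3 (0.31).

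The correlation of fold changes (r = 0.16) was 0.0704 with a mean of at least 5 FPKM, 0.111 with annotated transcripts alone and 0.112 without air-dried 1 and control 3. It was 0.235 with gaps up to 250 bp and 0.207 with no other locus touching the pair. With loci of at least 300 bp holding 1 annotated gene each it was 0.0495, and with 1 library left out 0.108 to 0.168. The pair with the largest fold change (gap of 155 bp, 1 locus of 222 bp) was kept at 0.235 and 0.207. It was dropped at 0.0704 and 0.0495. Leaving out this pair alone gave 0.0559. The median within-pair correlation (0.11) was 0.0308 with no filter, 0.22 with a mean of at least 5 FPKM, −0.0292 with quantile normalization, 0.23 with annotated transcripts alone, 0.195 without air-dried 1 and control 3, and 0.0781 to 0.177 with 1 library left out. The causes were not tested.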
